A study of Mus musculus with 9 samples.

Results

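The 8 genes described here encode the sensors that detect unfolded protein in the endoplasmic reticulum (ER) and the membrane-bound or sensor-activated transcription factors of that response. They were taken by name from the 22180 genes that have a probe set with a single symbol in the array annotation. They are Atf6, Atf6b, Ern1, Eif2ak3, Xbp1, Creb3, Creb3l1 and Creb3l2. Each of the 8 had 1 such probe set and 0 probe sets shared with another symbol, so no choice between probe sets was needed. RNA came from cultured mouse podocytes, the epithelial cells that wrap the filtering capillaries of the kidney, and was hybridised to 9 single-colour arrays in 3 groups of 3. All cells had been kept at 37 °C for 11 days to differentiate. The control group received the vehicle DMSO, the second group 2.5 µM thapsigargin for 16 hours, and the third group the same thapsigargin dose combined with 10 µM forskolin over the same 16 hours. Thapsigargin empties the ER calcium store by blocking its calcium pump, and forskolin raises cAMP by activating adenylyl cyclase. No group received forskolin alone, so what forskolin does to these genes without thapsigargin was not measured. The labels name the arrays of a group biological replicates without saying what was separate between them, so a p-value here speaks of how much these arrays vary.

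The unfolded protein response runs through 3 kinds of sensor in the ER membrane. IRE1, encoded by Ern1, is a kinase and ribonuclease that cuts a short intron out of the Xbp1 messenger, so that the XBP1 transcription factor can be made. PERK, encoded by Eif2ak3, phosphorylates the initiation factor eIF2 and slows translation. ATF6 and its relative ATF6B (genes Atf6 and Atf6b) are held in the ER membrane, move to the Golgi under stress and are cut there, which frees a transcription factor. CREB3, CREB3L1 and CREB3L2 are built and released in a like way, and are known mainly from secretory and matrix-producing cells. The sensors and the membrane-bound factors are switched on after they are made, and XBP1 at its messenger. The arrays measured the amount of their messengers, not cleavage, phosphorylation or splicing, and the single Xbp1 value does not separate the spliced from the unspliced form.

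Thapsigargin raised the messengers of 1 member of each sensor class, of Xbp1 and of Creb3l2, while Atf6b, Creb3 and Creb3l1 did not pass the test. In limma with Benjamini-Hochberg adjustment over all 22180 genes, 5 of the 8 genes rose after thapsigargin and 0 fell, where 18.2% of all genes rose and 16.9% fell. At an unadjusted p under 0.05 the counts were 6 and 0. The 8 genes were chosen with earlier results of these data known, so these counts only describe them. When arrays were centred by their medians, 4634 genes rose and 2816 fell over the whole table, against 4026 and 3742 as deposited, and 6 of the 8 genes rose, with Creb3l1 added. The median log2 change of the 8 genes was 0.72, and that of all genes tested was -0.04. The rises ranged from 1.49-fold for Creb3l2 to 3.51-fold for Atf6. On adding forskolin to thapsigargin 1 of the 8, Eif2ak3, passed the test, and it did so by a narrow margin.

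The control regions of these genes were read where a sequence was given. ATF6 and XBP1 bind the ER stress response element, spelled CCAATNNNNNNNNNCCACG, and XBP1 and ATF6 also bind a core spelled TGACGTGG. Factors of the CREB kind bind the cAMP response element, TGACGTCA. RefSeq windows of GRCm38.p6, which run from 250 bases before a gene's annotated start to 50 after it, matched 6 of the 8 genes. Both strands were searched. The full ER stress response element, the core TGACGTGG and the full TGACGTCA were found in 0 of the 6 windows, where they occur in 0.119%, 0.676% and 1.79% of all 32851 windows of that length. The letters CCACG, which are part of the ER stress response element and on the other strand overlap the core TGACGTGG, were found 1 time for Ern1 and 3 times for Creb3, and 32.8% of all windows hold them. The letters TGACG, contained in both TGACGTCA and TGACGTGG, were found 1 time, for Creb3l2, and 20.8% of all windows hold them.

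The windows of Ern1 (chr11:106487747-106488046, minus strand), Creb3l2 (chr6:37442099-37442398, minus strand) and Creb3 (chr4:43562408-43562707, plus strand) are shown because they hold the matches, and that of Xbp1 (chr11:5520391-5520690, plus strand) because its messenger is the substrate of IRE1. The windows of Atf6b and Eif2ak3 held 0 of the letters searched. They are written 5′ to 3′ along the gene, with matched letters in capitals, CCACG or its reverse complement CGTGG for Ern1 and Creb3 and TGACG for Creb3l2.
Ern1: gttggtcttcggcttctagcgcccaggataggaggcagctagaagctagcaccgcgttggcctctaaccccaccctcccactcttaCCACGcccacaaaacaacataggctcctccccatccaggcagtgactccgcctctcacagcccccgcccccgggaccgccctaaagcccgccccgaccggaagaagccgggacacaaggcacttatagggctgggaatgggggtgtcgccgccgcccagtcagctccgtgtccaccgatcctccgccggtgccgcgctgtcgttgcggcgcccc
Creb3l2: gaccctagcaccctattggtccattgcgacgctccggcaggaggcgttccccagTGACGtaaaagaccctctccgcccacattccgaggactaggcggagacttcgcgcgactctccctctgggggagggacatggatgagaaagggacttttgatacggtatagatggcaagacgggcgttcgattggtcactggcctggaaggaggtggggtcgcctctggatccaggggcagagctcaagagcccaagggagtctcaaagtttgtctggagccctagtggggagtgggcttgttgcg
Xbp1: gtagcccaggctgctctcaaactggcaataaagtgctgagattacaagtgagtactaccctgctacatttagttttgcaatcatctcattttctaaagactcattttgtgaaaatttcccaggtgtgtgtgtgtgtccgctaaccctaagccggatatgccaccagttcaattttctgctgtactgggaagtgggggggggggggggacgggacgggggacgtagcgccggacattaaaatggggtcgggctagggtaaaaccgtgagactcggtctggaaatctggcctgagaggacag
Creb3: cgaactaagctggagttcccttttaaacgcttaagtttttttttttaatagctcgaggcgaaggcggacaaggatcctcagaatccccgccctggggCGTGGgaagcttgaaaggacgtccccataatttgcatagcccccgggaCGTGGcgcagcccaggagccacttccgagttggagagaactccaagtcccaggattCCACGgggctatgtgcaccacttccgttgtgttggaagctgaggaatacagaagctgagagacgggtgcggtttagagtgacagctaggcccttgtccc

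The absence of these letters says nothing of binding outside the windows or to other spellings, and a gene can have more starts than the table lists. By the same search the full element was found in the windows of 8 of the 14 ATF6 target genes and 5 of the 19 XBP1 target genes that have a window. Such genes are known as targets in part because of it, so the counts describe the lists and test nothing. The counts also overlap: all of the XBP1 genes with the element but Ero1b are among the ATF6 genes with it. The ATF6 target Derl3, which did not rise after thapsigargin, holds the element too. Examples are shown because they spell out the element, with its fixed ends in capitals, each read 5′ to 3′ on the strand that matches. Hspa5 encodes the main ER chaperone BiP, Hsp90b1 the chaperone GRP94, Creld2 a secretory-pathway protein induced by ER stress and Syvn1 the ubiquitin ligase HRD1.
Hspa5: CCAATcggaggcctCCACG
Hsp90b1, first site: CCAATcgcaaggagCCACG
Hsp90b1, second site: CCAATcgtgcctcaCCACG
Creld2: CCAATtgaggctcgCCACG
Syvn1: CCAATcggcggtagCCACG

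**Figure D1:**
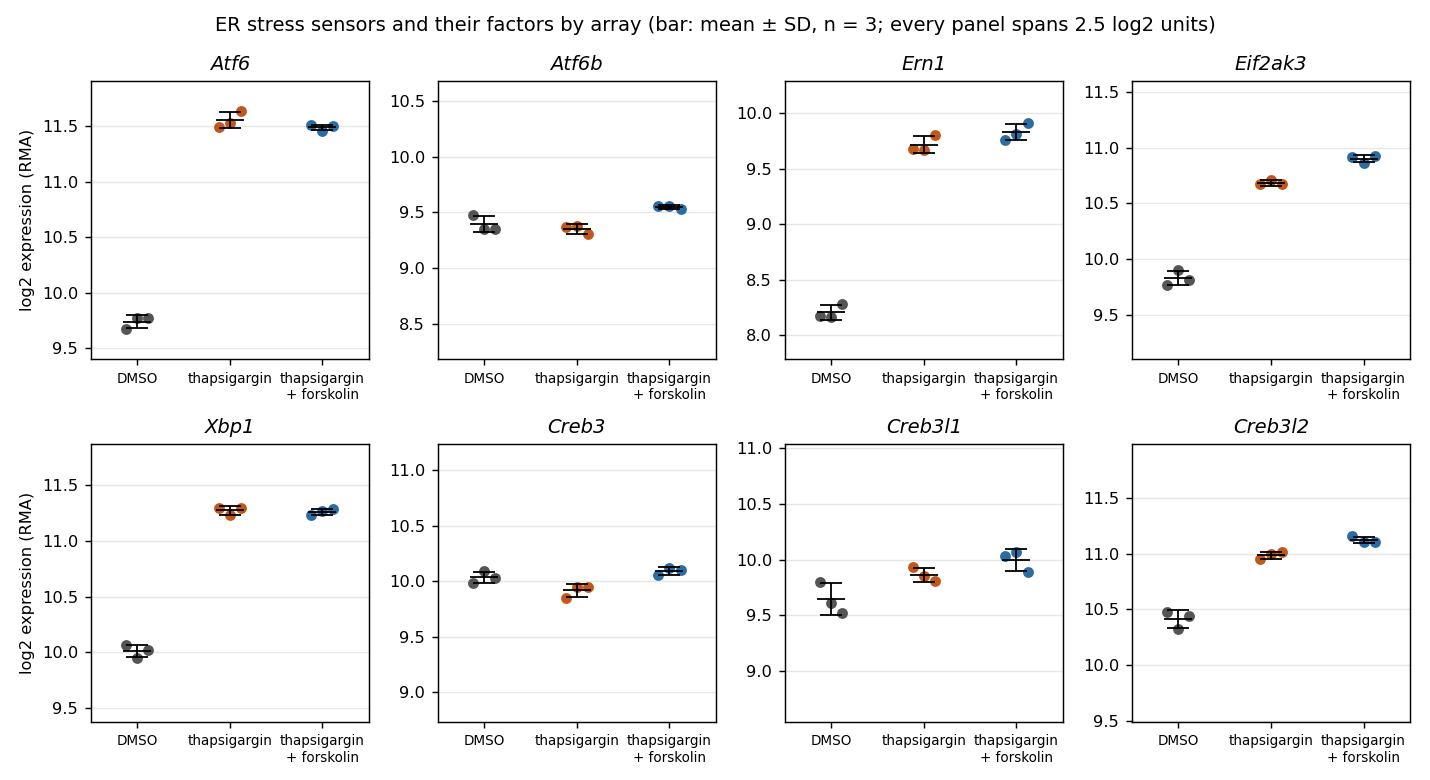
Log2 expression of each of the 8 genes on each of the 9 arrays, by group, with mean ± SD of 3 arrays. The vertical axes start at different values but all span the same range, so distances can be compared between panels. Atf6, Ern1, Eif2ak3, Xbp1 and Creb3l2 stand clear of DMSO in both thapsigargin groups, while the Atf6b and Creb3 values of the 3 groups lie within 0.27 of each other.

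Atf6 showed the largest rise among the 8. Its log2 values were 9.68, 9.77 and 9.77 on the DMSO arrays, 11.50, 11.53 and 11.63 on the thapsigargin arrays, and 11.51, 11.46 and 11.50 on the arrays with forskolin added. The lowest treated value thus lay far above the highest control value, and both treated groups overlapped. The log2 change after thapsigargin was 1.81 ± 0.057 (limma standard error, 3 arrays per group, adjusted p = 2.05e-08), a size of rise that 0.577% of all genes exceeded. Atf6b, its relative, read 9.47, 9.35 and 9.35 in DMSO, 9.37, 9.38 and 9.30 after thapsigargin, and 9.56, 9.56 and 9.53 with forskolin added. DMSO and thapsigargin values of Atf6b overlapped, with a log2 change of -0.04 and a 95% interval from -0.16 to 0.08 (limma adjusted p = 0.624). The rise seen for Atf6 lies far outside that interval.

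The difference between the ATF6 relatives was also taken within each array, which removes anything that scales both genes alike. The log2 value of Atf6 minus that of Atf6b was between 0.20 and 0.42 on the DMSO arrays, between 2.13 and 2.33 after thapsigargin and between 1.90 and 1.97 with forskolin added. None of the 3 groups overlapped. The group difference was 1.85 ± 0.097 for thapsigargin against DMSO (SE, n = 3 arrays per group), and -0.26 ± 0.067 for the addition of forskolin. An exact two-sided permutation test gave p = 0.1 for each, which is the smallest that 3 against 3 arrays can give, and 0.129 after adjustment over the 9 tests made on 3 pairs, so this test cannot pass the threshold with 3 against 3 arrays. On these arrays the gap between the genes was widest in the group given thapsigargin alone.

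**Figure D2:**
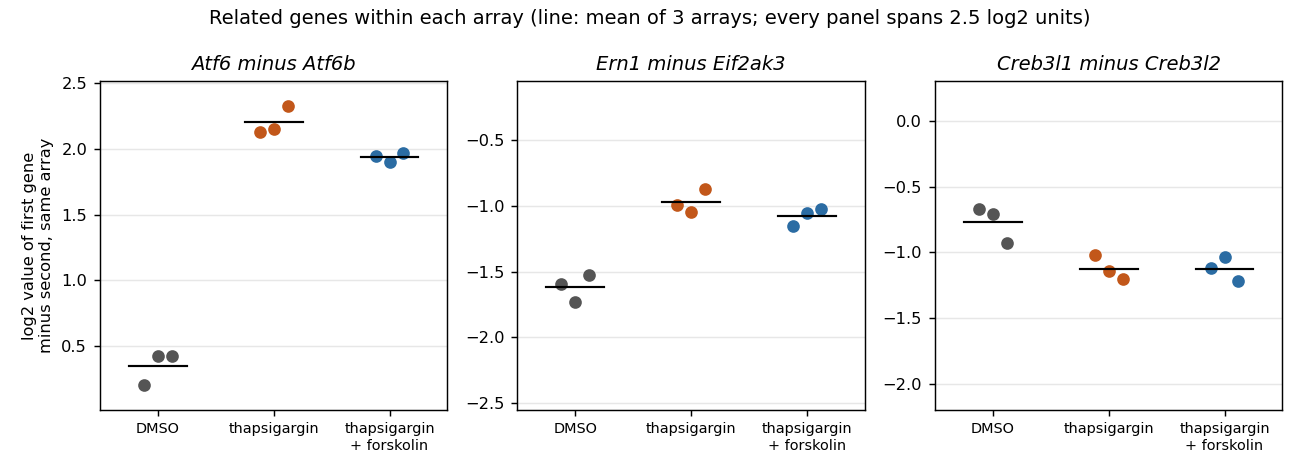
Log2 value of 1 gene minus that of its relative on the same array, for 3 pairs, with the mean of 3 arrays as a line. The Atf6 to Atf6b difference rises from at most 0.42 in DMSO to at least 1.90 in both treated groups, the Ern1 to Eif2ak3 difference rises by 0.65, and the Creb3l1 to Creb3l2 difference falls by 0.35 after thapsigargin.

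The sensor kinases rose by different amounts. Ern1 read 8.18, 8.17 and 8.29 in DMSO, 9.68, 9.67 and 9.80 after thapsigargin, and 9.76, 9.82 and 9.91 with forskolin added. All 6 treated arrays lay above all control arrays, and the treated groups overlapped. Its log2 change after thapsigargin was 1.51 ± 0.065, or 2.84-fold (limma adjusted p = 1.3e-07). Eif2ak3 read 9.77, 9.90 and 9.81 in DMSO, 10.67, 10.72 and 10.67 after thapsigargin, and 10.91, 10.87 and 10.93 with forskolin added. For this gene the 3 groups did not overlap at all and lay in the order DMSO, thapsigargin, thapsigargin with forskolin. The log2 change after thapsigargin was 0.86 ± 0.053, or 1.81-fold (limma adjusted p = 1.19e-06). Ern1 minus Eif2ak3 within an array rose by 0.65 ± 0.080 (n = 3 arrays per group) with no overlap between DMSO and thapsigargin. On these arrays the gain of Ern1 was thus the larger. The exact permutation test gave p = 0.1 (adjusted 0.129), cannot go lower with 3 against 3 arrays and so lends no support. The Ern1 window shown above holds 1 CCACG and that of Eif2ak3 0.

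Xbp1, the messenger that IRE1 cuts, rose as well. It read 10.06, 9.95 and 10.02 in DMSO, 11.30, 11.23 and 11.30 after thapsigargin, and 11.23, 11.27 and 11.29 with forskolin added. The treated groups overlapped and lay at least 1.17 log2 units above every control array. The log2 change was 1.27 ± 0.052, or 2.41-fold (limma adjusted p = 1.01e-07), and 1.62% of all genes rose more. Its printed window held 0 of the letters searched.

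Among the CREB3 relatives Creb3l2 rose and the other members did not pass. Creb3l2 read 10.48, 10.32 and 10.44 in DMSO, 10.95, 11.00 and 11.01 after thapsigargin, and 11.16, 11.10 and 11.11 with forskolin added. The groups did not overlap, and the log2 change after thapsigargin was 0.57 ± 0.056 (limma adjusted p = 2.85e-05). Creb3l1 read 9.80, 9.61 and 9.52 in DMSO, 9.93, 9.85 and 9.81 after thapsigargin, and 10.04, 10.07 and 9.89 with forskolin added. Its DMSO values were the most spread of the 8 genes, with an SD of 0.14, and the highest DMSO array lay just under the lowest thapsigargin array. The log2 difference was 0.22 ± 0.083 (limma adjusted p = 0.0728). This call depended on the settings and on 1 array: Creb3l1 passed without DMSO replicate 1 (0.30, adjusted p = 0.0141), with the arrays centred on their medians (0.30, adjusted p = 0.0101), with a trended and robust prior (adjusted p = 0.0282) and after dim genes were left out (adjusted p = 0.0359).

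Creb3 read 9.98, 10.09 and 10.03 in DMSO, 9.85, 9.95 and 9.95 after thapsigargin, and 10.05, 10.12 and 10.10 with forskolin added. The thapsigargin arrays lay lowest, without overlap with either other group. The log2 difference after thapsigargin was -0.12 ± 0.055 (limma adjusted p = 0.143), and it passed the test only after a further quantile normalization (-0.16, adjusted p = 0.0446). Creb3l1 minus Creb3l2 within an array fell by 0.35 ± 0.096 after thapsigargin (n = 3 arrays per group, exact permutation p = 0.1, adjusted 0.129), again without overlap. In all, the DMSO and thapsigargin values did not overlap for 7 of the 8 genes, where this was so for 43.9% of all genes.

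**Figure D3:**
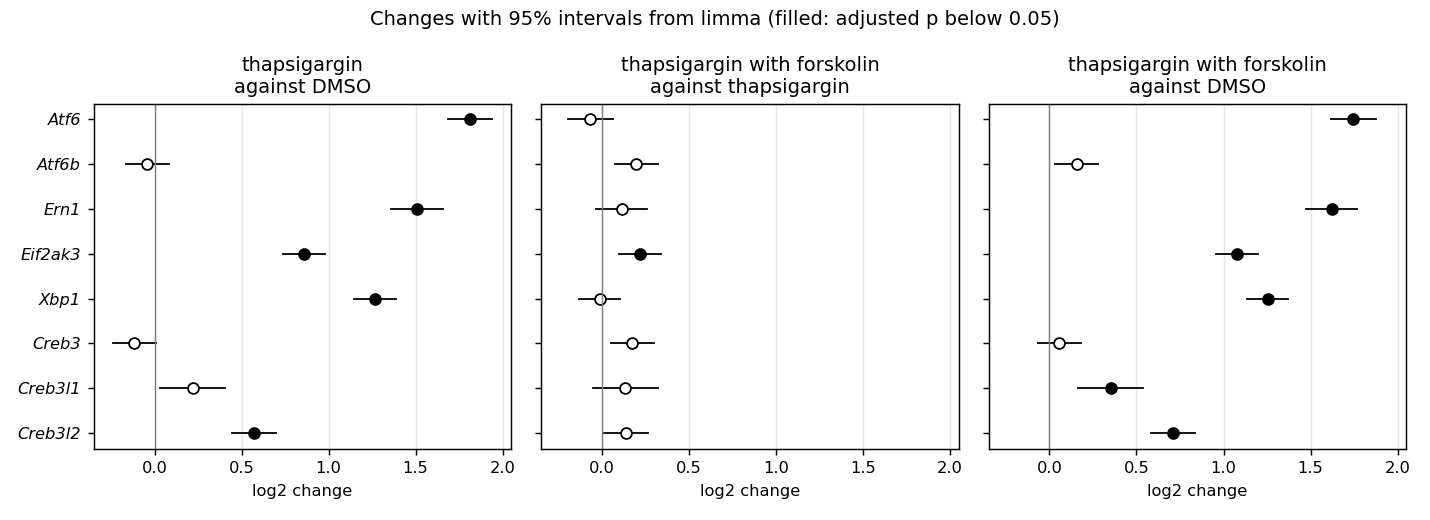
Log2 change of each of the 8 genes in the 3 comparisons, with 95% intervals from limma; filled points have an adjusted p below 0.05. Rises after thapsigargin reach 1.81, whereas all 8 differences made by adding forskolin lie between -0.07 and 0.22.

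The second comparison asked what forskolin added. The largest of the 8 differences was that of Eif2ak3, at 0.22 ± 0.053 (limma adjusted p = 0.0369), or 1.16-fold. Of all genes 3.7% rose and 4.17% fell in this comparison. At an unadjusted p under 0.05, 4 of the 8 genes were higher and 0 lower. The Eif2ak3 call held without DMSO replicate 1 or 2 and was lost without any 1 of the other 7 arrays. The adjusted p was 0.05002 with DMSO replicate 3 left out, 0.125, 0.0802 and 0.119 with thapsigargin replicate 1, 2 or 3 left out, and 0.0995, 0.0761 and 0.121 with replicate 1, 2 or 3 of the forskolin group left out. Centring by array medians gave 0.0973. The difference itself stayed between 0.20 and 0.24 in these fits. Thapsigargin replicates 1 and 3 hold the same Eif2ak3 value to 4 decimals, 10.6718.

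Atf6b and Creb3 were the next largest, at 0.20 ± 0.054 (limma adjusted p = 0.0636) and 0.17 ± 0.055 (limma adjusted p = 0.104). For both, the values with forskolin lay above all values of the thapsigargin group, and both passed with a trended and robust prior (adjusted p = 0.0139 and 0.0203) and after dim genes were left out (0.0217 and 0.039). Atf6b passed also in a fit of the 6 arrays compared (0.0447) and without DMSO replicate 1 (0.0297). Creb3l2 differed by 0.14 ± 0.056 (limma adjusted p = 0.225), also without overlap. Groups that did not overlap were thus seen for 4 of the 8 genes, and for 26.1% of all genes.

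For the remaining members the 95% intervals bound what forskolin could have added. They ran from -0.19 to 0.06 for Atf6, from -0.03 to 0.26 for Ern1, from -0.13 to 0.11 for Xbp1 and from -0.05 to 0.32 for Creb3l1, with limma adjusted p of 0.623, 0.418, 0.947 and 0.458. For Atf6, Ern1 and Xbp1 the bound nearest to a loss of the thapsigargin rise is thus a small part of that rise, which was 1.81, 1.51 and 1.27. The median difference of the 8 genes was 0.14, against -0.01 for all genes.

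Both treated groups were set against the same 3 DMSO arrays, so their changes are given side by side and not as separate evidence. With forskolin present 6 of the 8 genes stood above DMSO and 0 below, where 17.9% of all genes rose and 16.7% fell, and 7 and 0 did so at an unadjusted p under 0.05. With arrays centred by their medians 4662 genes were higher and 2765 lower here, against 3963 and 3699 as deposited, and 7 of the 8 genes were higher. Log2 changes from DMSO were 1.75 (Atf6), 1.62 (Ern1), 1.25 (Xbp1), 1.08 (Eif2ak3) and 0.71 (Creb3l2). The added member was Creb3l1, at 0.35 ± 0.083 (limma adjusted p = 0.00839). Atf6b differed by 0.16 ± 0.054 (limma adjusted p = 0.0526), on the edge of the threshold, and Creb3 by 0.06 ± 0.055 (limma adjusted p = 0.467). The groups did not overlap for 7 of the 8 genes, and for 42.6% of all genes.

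The levels of each gene could thus be ordered across the groups. For Atf6, Ern1 and Xbp1 the order was DMSO below both thapsigargin groups, which did not differ beyond their spread. For Eif2ak3 and Creb3l2 the order was DMSO, thapsigargin, then thapsigargin with forskolin, with the last step passing for Eif2ak3 alone. For Creb3l1 the group means stood in that order too, but neither single step passed. For Atf6b and Creb3 the thapsigargin group was lowest and the combined group highest, with no step past the threshold. Levels of different genes were not ranked, since probe sets differ in how strongly they bind.

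The genes downstream of the sensors were counted in lists. These and the following lists were chosen with earlier results of these data known, so their counts describe the lists and test nothing. Of 25 target genes of XBP1, 25 rose after thapsigargin and 0 fell, at an unadjusted p under 0.05 as well, with a median log2 change of 1.31. Over all genes 18.2% rose and 16.9% fell. Ero1b, an ER oxidase, was at 3.22 ± 0.062, Sdf2l1, an ER co-chaperone component, at 3.13 ± 0.050, and Dnajb9, a co-chaperone that holds IRE1 inactive, at 2.71 ± 0.080. Of 15 measured target genes of ATF6, 14 rose and 0 fell, with the same counts unadjusted and a median of 1.92, led after Sdf2l1 by Creld2 at 2.97 ± 0.046 and Herpud1, of ER-associated degradation, at 2.18 ± 0.052. The member that did not pass was Derl3, of ER-associated degradation, at -0.09. In DMSO Derl3 read 5.86, below the median of all gene values, 6.29. Its window holds the full ER stress response element. The lists share 7 genes, which is 7 of the 16 fixed for ATF6 and 7 of the 25 fixed for XBP1, so they are not independent.

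Some of these targets were called on adding forskolin, where 3.7% of all genes rose and 4.17% fell. In the XBP1 list 2 of 25 rose and 1 fell, namely Ero1b at 0.36 ± 0.062, Edem1 at 0.27 ± 0.060 and Spcs3, a signal peptidase subunit, at -0.50 ± 0.050. In the ATF6 list 2 of 15 rose, Os9 at 0.43 ± 0.055 and Hspa5 at 0.20 ± 0.051, and 0 fell, the same as at an unadjusted p under 0.05. The calls of Edem1 and Hspa5 were lost without any 1 of the 6 arrays compared, with limma adjusted p up to 0.0824 and 0.127, and that of Hspa5 also without DMSO replicate 3 (adjusted p = 0.0567), which left 1 called gene in the ATF6 list. Both were lost on centring by array medians (0.0726 and 0.131), and with all probe sets of a gene averaged Edem1 stood at 0.23 (adjusted p = 0.278). The list medians were 0.03 and 0.01.

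Of 17 measured partners of IRE1, among them the RNA ligase complex that joins the cut Xbp1 messenger, 10 rose and 3 fell after thapsigargin, with a median of 0.30, where 18.2% of all genes rose and 16.9% fell. Besides Dnajb9 the largest rises were those of Sel1l at 2.02 ± 0.045 and Syvn1 at 1.92 ± 0.047, both of the HRD1 complex, and Pdia6 at 1.15 ± 0.053, a disulfide isomerase that binds IRE1 and PERK. Dnajb9, Sel1l, Syvn1, Pdia6 and Sec61a1 are also in the XBP1 or ATF6 list, so their rises were already counted there. Adding forskolin called 0 of the 17, where 3.7% of all genes rose and 4.17% fell. At an unadjusted p under 0.05, 2 of the 17 were higher and 3 lower. Pdia6 differed there by -0.02 ± 0.053 and Sec61a1, of the ER translocon, by 0.01 ± 0.057. Of 19 measured genes around PERK, eIF2 and ATF4, 14 rose and 1 fell, with a median of 0.64. This list, too, shares a gene with the XBP1 and ATF6 lists. Trib3, a pseudokinase, was at 3.83 ± 0.088, Atf3, a stress transcription factor, at 3.17 ± 0.066, Chac1, which degrades glutathione, at 2.86 ± 0.049, and Ppp1r15a, which directs the dephosphorylation of eIF2, at 2.76 ± 0.115. With forskolin added 1 rose, Nfe2l2, the NRF2 factor, at 0.28 ± 0.050, and 0 fell, against 3 and 3 at an unadjusted p under 0.05. That count depended on the fit: 2 of the 19 were called without DMSO replicate 1, 2 or 3, 3 in a fit of the 6 arrays compared, and 4 with a trended and robust prior.

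The machinery that carries ATF6 and the CREB3 relatives to the Golgi and cuts them there was mixed. Of 19 genes 11 rose and 5 fell after thapsigargin, with a median of 0.40, where 18.2% of all genes rose and 16.9% fell. Among those that rose, Wfs1 and Sec24d are also in the XBP1 list. Wfs1, an ER membrane protein that restrains ATF6, was at 1.74 ± 0.058, Sec24d, a cargo-binding coat protein, at 1.60 ± 0.065, Pdia5, an isomerase that acts on ATF6, at 1.45 ± 0.074, and Sec23b, another coat protein, at 1.17 ± 0.050. With forskolin added Srebf2 and Insig2, of sterol control, rose by 0.35 ± 0.059 and 0.33 ± 0.062, and Thbs1, a secreted glycoprotein, fell by 0.33 ± 0.054 on the log2 scale. Over all genes 3.7% rose and 4.17% fell there. The Insig2 call was lost without thapsigargin replicate 1 (limma adjusted p = 0.0522) and without replicate 2 of the forskolin group (adjusted p = 0.0514).

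Of 6 measured target genes of the CREB3 family 4 rose after thapsigargin and 0 fell, where 18.2% of all genes rose and 16.9% fell. The counts were the same at an unadjusted p under 0.05. The 4 that rose were Sec24d, Sec23a at 1.06 ± 0.050, the Golgi protein gene Golgb1 at 0.54 ± 0.087 and the small GTPase gene Arf4 at 0.36 ± 0.054. Sec24d and Sec23a are also in the Golgi list, and Sec24d in the XBP1 list. Adding forskolin called 0 of the 6, where 3.7% of all genes rose and 4.17% fell. At an unadjusted p under 0.05, 0 of the 6 were higher and 1 lower. Sec23a differed there by -0.01 and Arf4 by 0.01. Col1a1 and Col1a2, the collagen genes of the list, were the members that did not pass after thapsigargin. In DMSO Col1a2 read 6.25, below the median of all gene values, 6.29.

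Of 13 other CREB and ATF factors and cofactors measured, 3 rose and 1 fell after thapsigargin, where 18.2% of all genes rose and 16.9% fell. The list median was 0.05. Atf2 rose by 0.51 ± 0.049 and Creb3l4, a further CREB3 relative outside the 8 genes, by 0.45 ± 0.083, while Crebrf, which binds CREB3 and promotes its breakdown, fell by 0.85 ± 0.070 on the log2 scale. Creb3l4 read 5.74 in DMSO and 6.18 after thapsigargin, both below the median of all gene values, 6.29. The rise of Hcfc1, a CREB3 cofactor, was 0.23 ± 0.056. With forskolin added Crem, a cAMP-responsive relative of CREB, rose by 0.83 ± 0.053 and Crebrf by 0.49 ± 0.070, and Creb5 fell by 0.30 ± 0.077. Over all genes 3.7% rose and 4.17% fell there. The Creb5 call was lost without any of 8 arrays, with limma adjusted p from 0.0523 to 0.149, and in a fit of the 6 arrays compared.

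Active IRE1 also cuts other messengers at the ER membrane, and 9 reported substrates of this decay were read. Of these 8 fell after thapsigargin and 0 rose, with the same counts at an unadjusted p under 0.05 and a median of -0.74, where 16.9% of all genes fell. Pdgfrb, a growth factor receptor, fell by 1.23 ± 0.049 on the log2 scale, the lysosomal enzyme gene Hgsnat by 1.23 ± 0.058, Bloc1s1, a subunit of a lysosome-positioning complex, by 1.04 ± 0.111 and Pmp22, a membrane protein, by 1.04 ± 0.067. The member that did not pass was Scara3, at 0.02 ± 0.078, which read 5.99 in DMSO, below the median of all gene values, 6.29. With forskolin added 3 of the 9 rose relative to thapsigargin and 0 fell, against 4 and 0 at an unadjusted p under 0.05, where 3.7% of all genes rose and 4.17% fell. They were Pmp22 at 0.86 ± 0.067, Hgsnat at 0.39 ± 0.058 and Pdgfrb at 0.38 ± 0.049, while Ern1 itself did not pass in that comparison. Decay was not measured, and Pdgfrb is also a marker of mesangial cells.

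**Figure D4:**
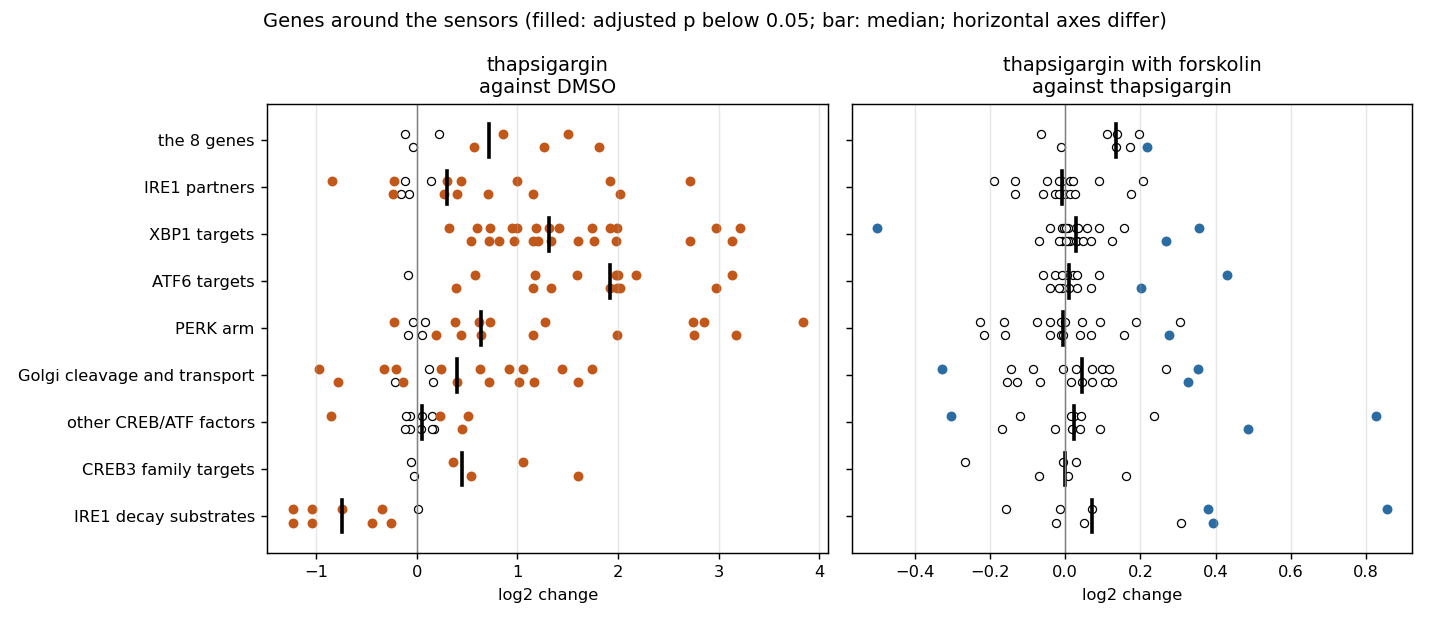
Log2 change of the 8 genes and of each measured gene of 8 lists around them, after thapsigargin (left) and on adding forskolin (right); filled points have an adjusted p below 0.05, bars are medians, and the horizontal axes differ. After thapsigargin the medians run from -0.74 for the IRE1 decay substrates to 1.92 for the ATF6 targets, and on adding forskolin all list medians lie between -0.01 and 0.07, with that of the 8 genes at 0.14.

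The genes whose pattern over the 9 arrays was nearest to a member were found by the root mean square difference of log2 values, each gene centred on its mean. Nearest to Atf6 were Eprs, a tRNA synthetase gene, at 0.034, Slc1a4, a neutral amino acid transporter gene, at 0.045 and Slc35b1, an ER nucleotide carrier gene, at 0.046. Nearest to Xbp1 were Tmem41b at 0.046, Srprb, a subunit of the signal recognition particle receptor, and Hsp90b1, both at 0.049. Nearest to Eif2ak3 were Hdac4 at 0.035, Atg13 at 0.052 and Clcn3 at 0.059. These distances are about the size of the SD within a group. For Ern1 the nearest were Tspyl2 at 0.060, N4bp2 at 0.070 and Far1 at 0.074, and for Creb3l2 Ube2j1, an enzyme of ER-associated degradation, at 0.040, Sos2 at 0.046 and Lmf1 at 0.048. Atf6b was nearest to Rab2b at 0.027, and Creb3 to Stmn1 at 0.036. For Creb3l1 the nearest gene was Skint8 at 0.057, followed by Gpaa1 and Morn4, both at 0.059. Skint8 had a mean log2 value of 3.66, below the arrays' lower quartiles of 4.53 to 4.59, against 9.24 for Gpaa1 and 9.92 for Morn4. The 9 arrays fall into 3 groups, and no test was made of these likenesses.

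Over all probe sets, arrays correlated at 0.989 to 0.993 within groups and 0.966 to 0.992 between groups, and no array stood apart. All 8 genes were above the upper quartile of the arrays, 7.61 to 7.75, in every group. Of the 9 podocyte markers analysed here 8 were above the median of all gene values, 6.29, in DMSO, with Nphs1 at 6.55 and Wt1 at 6.80. Markers of other cell types were present too. In DMSO the tubular genes Aqp1, Cdh16 and Lrp2 stood at 11.71, 11.16 and 9.49, the leukocyte genes Csf1r, Cd14 and Cd68 at 7.98, 7.97 and 7.94, and the endothelial gene Ehd3 at 10.36. In the same lists the leukocyte gene Ptprc, at 3.78, and the endothelial gene Emcn, at 3.88, lay below the lower quartiles of 4.53 to 4.59. Of the full lists 4 of 8 tubular, 3 of 6 leukocyte, 1 of 6 endothelial and 3 of 5 mesangial and pericyte markers were above the median of all gene values. The mean over the podocyte markers went from 9.02 to 9.06 on the DMSO arrays to 8.11 to 8.15 after thapsigargin and 7.92 to 7.94 with forskolin. After thapsigargin 6 of the 9 fell and 1 rose, with a list median of -0.39, and Plce1 and Synpo fell by 3.45 and 2.52. On adding forskolin 4 fell and 2 rose, with a median of -0.03. Plce1 fell by 1.29 in that step, while Synpo rose by 0.55. The mean over 8 tubular markers went from 7.65 to 7.71, to 6.63 to 6.70 and to 6.65 to 6.80. After thapsigargin Cdh16 fell by 3.37, Aqp1 fell by 3.24 and Lrp2 fell by 1.03 on the log2 scale, the other 5 did not pass, and the list median was -0.18. The mean over 5 mesangial and pericyte markers went from 8.51 to 8.55, to 8.04 to 8.06 and to 7.83 to 7.96, and that over 6 endothelial markers from 6.15 to 6.20, to 5.97 to 6.08 and to 5.94 to 6.01. After thapsigargin 2 of these 5 fell and 3 did not pass, with a list median of -0.26. Among the 6 endothelial markers 1 fell and 5 did not pass, with a median of 0.03. The leukocyte mean went from 6.25 to 6.36, to 6.02 to 6.08 and back to 6.28 to 6.38. After thapsigargin 1 of the 6 leukocyte markers fell and 5 did not pass, with a list median of -0.07. On adding forskolin Cd14 and Csf1r rose by 0.87 and 0.82, and the other 4 did not pass. In the mesangial and pericyte list Acta2 fell by 1.16 there, Pdgfrb rose by 0.38 and 3 did not pass. In bulk RNA fewer cells of a type and less RNA per cell cannot be told apart, and the part of these shifts in the members' changes was not tested.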

How the data were processed

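Per the submitters' processing notes, the authors made the deposited log2 values, 1 per probe set and array, with affy and RMA. RMA brings the arrays' distributions close to each other, so changes are relative to the bulk of genes. The distributions were not equal: array medians ran from 5.80 to 5.88 and upper quartiles from 7.61 to 7.75. Versions of affy and RMA, and any genome build, were not given in the sources used here. Of 41345 probe sets 23521 had 1 symbol, 1814 several and 16010 none. A gene was represented by its brightest probe set (mean of 9 arrays), giving 22180 genes. Titles gave the groups.

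A model of the group means was fitted to all 9 arrays (limma 3.58.1, R 4.3.3, 6 residual degrees of freedom, no covariate) with eBayes, two-sided, and Benjamini-Hochberg adjustment over all genes. Genes with an adjusted p below 0.05 were called. The procedure was tested on simulated data. Named are the 8 genes, up to 4 called genes per list with the largest change (2 with the highest mean where 0 passed), and the 3 nearest genes of a member. Col1a1, Col1a2, Derl3 and Scara3 were named after their values were seen, and so were the markers given singly. Members and lists were chosen with earlier results of these data known. Figures used matplotlib 3.10.9. Alternatives were a fit of the 6 arrays compared, a trended robust prior, centring, quantile normalization, a filter on dim genes, probe sets averaged per gene, replicate numbers as blocks, and leaving out single arrays.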

Additional observations from a re-analysis of the deposited data

How the results depend on the processing

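In thapsigargin against DMSO and in thapsigargin with forskolin against DMSO the number of members called stayed within 1.5 times of 5 and 6 under every alternative run. In thapsigargin with forskolin against thapsigargin it was 1 of 8, but 3 with a trended and robust prior, 3 among genes above the median level, 2 in a fit of the 6 arrays compared and 0 after centring on the array medians, and it ranged from 0 to 2 when an array was left out. At an unadjusted p under 0.05 limma gave 3 or 4 members higher and 0 lower in each of these fits.

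Replicate numbers matched the arrays in part. Deviations of same-numbered arrays correlated between -0.07 and 0.25 and above 0.1 in 4 of 9 pairs. Those of replicate 3 correlated at 0.211, 0.226 and 0.184 in the 3 pairs of groups. Not every array correlated best with its own number: thapsigargin replicate 2 and replicate 1 of the forskolin group correlated at 0.254. With the replicate number as a block 0 members were called on adding forskolin (Eif2ak3 adjusted p = 0.0680), 4 were higher at an unadjusted p under 0.05, and Creb3l1 passed after thapsigargin (adjusted p = 0.0276). Genes called over the whole table were then 8018, 1582 and 8040, against 7768, 1745 and 7662.

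Of 1568 values for single genes under alternatives 40 lost and 16 gained a call, and 10 had the other sign, all near 0 and uncalled in both fits (Atf6b after thapsigargin, and Xbp1, Sec23a and Arf4 on adding forskolin). On adding forskolin the called genes numbered 0 to 2 of the IRE1 partners, 1 to 2 of the ATF6 targets, 1 to 4 around PERK and 2 to 5 of the Golgi list. The other list counts stayed within 1.5 times. On adding forskolin 1150 of all genes were called without replicate 2 of the forskolin group, against 1745. Lists were put through these alternatives after seeing the data. The within-array differences of relatives kept their sign where groups did not overlap. The number of arrays limits the precision, and background was not checked, since scanner files were not used here.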
